A study of Mus musculus with 6 samples.

Results

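A set of 10 genes of mineralization and phosphate handling was read in bone of newborn mice labelled as having or lacking *Stat3* in cells of the osteoblast lineage. They were *Alpl*, *Phospho1*, *Enpp1*, *Slc20a1*, *Slc20a2*, *Bglap*, *Bglap2*, *Mgp*, *Phex* and *Fam20c*, chosen by name, and all 10 were found among the 44556 gene symbols counted. RNA was taken from parietal bone, a flat bone of the skull vault, of C57BL/6 newborns, with 3 libraries labelled OsxCre and 3 labelled OsxCre;Stat3fl/fl. Cre recombinase under the *Osx* (*Sp7*) promoter acts in osteoblast precursors and their descendants, so other cells of the bone keep *Stat3*, and the controls carried the same OsxCre transgene with no floxed *Stat3* named in their label. The study describes male littermates, 3 per genotype, whereas *Xist* had between 7333 and 12392 counts and the Y-linked *Ddx3y* had 0 counts in every library.

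Bone mineral is calcium phosphate laid down on a collagen matrix, and its deposition depends on the balance between inorganic phosphate, which builds the crystal, and pyrophosphate, which blocks it. Matrix vesicles budding from osteoblasts carry phosphatases that release phosphate or destroy pyrophosphate, and transporters move phosphate across the membrane. Gla proteins, whose glutamates are carboxylated with the help of vitamin K, bind mineral, and matrix Gla protein is known above all as an inhibitor of calcification in cartilage and arteries. Circulating phosphate is set by hormones, to which PHEX and the secreted kinase FAM20C are linked.

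The libraries held between 8193651 and 12080044 counts, and every library labelled OsxCre;Stat3fl/fl was smaller than every OsxCre library. Levels are given as CPM, counts scaled to a common library size, with TMM factors that also allow for differences in RNA composition. *Stat3* itself had 150, 135 and 141 CPM in the OsxCre libraries and 153, 155 and 155 CPM in those labelled OsxCre;Stat3fl/fl. This was a difference of 0.12 in log2 (standard error, SE, 0.07, edgeR quasi-likelihood test, adjusted p = 0.442), so the gene's count did not show the deletion and genotypes were taken from the labels. The study describes loxP sites around only some exons of *Stat3*, and a count of the whole gene does not read those exons apart. Whether this bears on the *Stat3* values was not tested. The study reported loss of STAT3 protein by western blot in bone marrow mesenchymal stem cells of such mice. Osteoblast markers were present at high levels, with *Col1a1* at 13055 ± 2131 CPM (SD, n = 3) and *Runx2* at 51.6 CPM on average in OsxCre. In RNA of whole bone, fewer cells of a type and less RNA per cell cannot be told apart.

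*Bglap* and *Bglap2*, which encode osteocalcin, lie side by side with *Bglap3* on chromosome 3, and their sequences bear on how far their counts can be told apart. In the GENCODE transcripts, the coding sequences of *Bglap* and *Bglap2* had 284 of 288 bases in common (98.6%), and 74.7% of the 50-base windows of the *Bglap* transcript were found unchanged in that of *Bglap2*. The 60 coding bases from the start codon hold 3 of the 4 differences, here in capitals.
Bglap: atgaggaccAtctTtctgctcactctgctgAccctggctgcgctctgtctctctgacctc
Bglap2: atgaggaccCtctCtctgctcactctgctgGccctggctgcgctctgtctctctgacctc
A read that lies wholly in sequence shared by the 2 transcripts matches both genes, and how such reads were counted is not given in the sources used here. *Mgp*, the other Gla protein gene, had no 50-base window in common with either.

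The promoters of *Alpl* and *Phospho1*, the members with the lowest fold changes, and of *Bglap*, whose groups overlapped, are shown to compare their composition. Each is the 250 bases before the RefSeq start on GRCm38.p6, read 5′ to 3′ on the strand of the gene, at chr4:137796385-137796634 (minus strand), chr11:95824250-95824499 (plus strand) and chr3:88384467-88384716 (minus strand). Capitals mark the GC box GGGCGG and the RUNX motif ACCACA, searched on both strands.
Alpl: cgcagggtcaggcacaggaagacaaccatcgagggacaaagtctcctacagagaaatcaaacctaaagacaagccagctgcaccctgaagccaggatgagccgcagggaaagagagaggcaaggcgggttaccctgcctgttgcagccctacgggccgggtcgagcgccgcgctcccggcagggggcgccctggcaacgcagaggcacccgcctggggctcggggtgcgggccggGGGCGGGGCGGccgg
Phospho1: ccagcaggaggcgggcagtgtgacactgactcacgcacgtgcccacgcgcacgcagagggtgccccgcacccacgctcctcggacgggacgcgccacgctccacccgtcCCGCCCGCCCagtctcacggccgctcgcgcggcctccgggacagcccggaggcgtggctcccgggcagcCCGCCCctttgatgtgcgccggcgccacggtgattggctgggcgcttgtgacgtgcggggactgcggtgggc
Bglap: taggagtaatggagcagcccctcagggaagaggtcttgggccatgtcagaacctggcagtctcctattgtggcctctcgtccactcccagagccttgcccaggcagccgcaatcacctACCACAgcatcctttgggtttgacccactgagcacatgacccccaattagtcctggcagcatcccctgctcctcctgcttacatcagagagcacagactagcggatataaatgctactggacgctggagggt
Windows of 300 bases around the start were found for 7 of the 10 members, with 9 starts in all. The GC box was in 6 of these 9 windows and in 35.7% of all 32851 windows, and in *Alpl* and in *Phospho1* it occurred 3 times, with matches that overlap by a base in *Alpl* at -15 and -10 and by 2 bases in *Phospho1* at -141 and -137. The third match of *Alpl* begins at the start itself, just after the bases printed. The RUNX motif was in 3 of the 9, those of *Enpp1*, *Slc20a1* and *Bglap*, and in 16.8% of all windows. The letters TTCNNNGAA, the core of the STAT motif, were in 0 of the 9 windows and in 8.3% of all windows.

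Of the 10 genes, *Mgp* alone passed an adjusted p of 0.05, and it was higher in the libraries labelled OsxCre;Stat3fl/fl. Among all 15600 genes tested, 0.776% were called higher and 0.481% lower. No member was called lower with limma-voom or with edgeR's quasi-likelihood test on filtered, TMM-scaled counts of all libraries. In that edgeR fit 2 were lower at an unadjusted p under 0.05 (8.34% of all genes). DESeq2's Wald test called those same members, *Alpl* and *Phospho1*, and 235 of 15595 genes in all, lower. Higher at an unadjusted p under 0.05 was 1 member, *Mgp*, against 8.03% of all genes. The genotypes did not overlap in any library for 2 members that were lower and 1 that was higher, against 12.2% and 10.8% of all genes. Log2 fold changes were below 0 for 5 members and above 0 for 5, with a median of -0.01, beside a median of -0.00 over all genes.

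**Figure D1:**
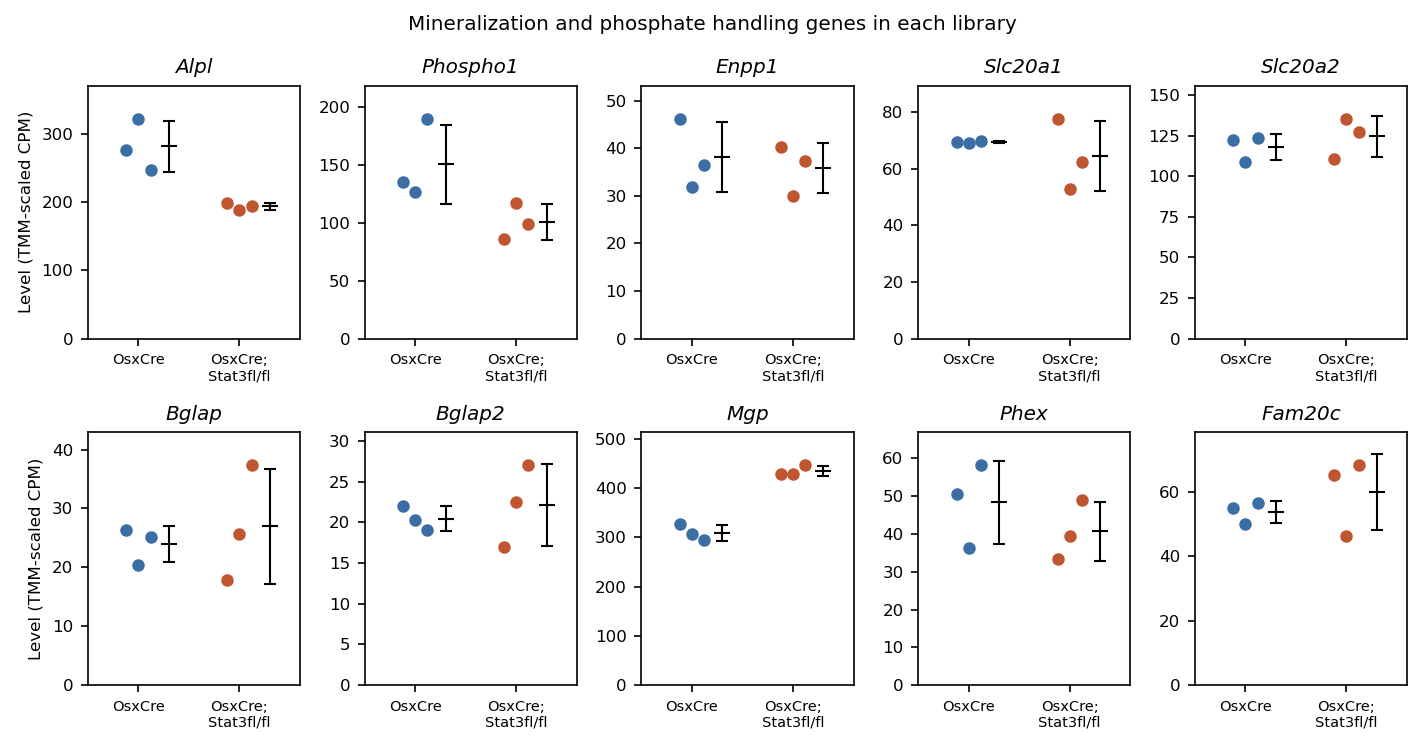
Level of each gene in each library, in TMM-scaled CPM on linear axes that start at 0 (points, libraries; bars, mean ± SD of 3). *Alpl* and *Phospho1* lie lower and *Mgp* higher in every library labelled OsxCre;Stat3fl/fl than in every OsxCre library, and the other 7 genes overlap.

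The first group of genes sets the supply of phosphate and pyrophosphate. *Alpl* (chromosome 4, 137741731 to 137796384 on GRCm38) encodes tissue-nonspecific alkaline phosphatase, which splits pyrophosphate into phosphate. It had 278, 323 and 248 CPM in OsxCre and 199, 189 and 194 CPM in the libraries labelled OsxCre;Stat3fl/fl. All 3 of the latter lay below the lowest OsxCre library, and they differed from each other by less (coefficient of variation 2.60%) than the OsxCre libraries did (13.3%). The log2 fold change was -0.54 (SE 0.10, 95% interval -0.78 to -0.30, edgeR quasi-likelihood test, adjusted p = 0.0578), or 0.686 of the OsxCre level. The adjusted p was 0.0429 without OsxCre replicate 3, between 0.127 and 0.192 without any other single library, and 0.000278 with DESeq2's Wald test. In edgeR it was 0.0129 without the filter on low counts and 0.00599 without scaling, where the median of all genes was -0.38. Of 10 alternatives that kept every library, 3 had an adjusted p under 0.05, and the highest was 0.187.

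*Phospho1* (chromosome 11, 95824500 to 95832140) encodes the matrix vesicle phosphatase that frees phosphate from phosphocholine and phosphoethanolamine, and lies 5.05 Mb from *Stat3*. Its levels were 135, 127 and 190 CPM in OsxCre and 86.3, 117 and 99.3 CPM in the libraries labelled OsxCre;Stat3fl/fl. The groups did not overlap, though the highest library labelled OsxCre;Stat3fl/fl (117 CPM) came close to the lowest OsxCre library (127 CPM). The log2 fold change was -0.58 (SE 0.17, 95% interval -0.98 to -0.18, edgeR quasi-likelihood test, adjusted p = 0.159). *Enpp1* (chromosome 10, 24637914 to 24712159), whose product makes pyrophosphate from extracellular nucleotides and so opposes *Alpl*, had 46.2, 31.8 and 36.5 CPM against 40.2, 30.0 and 37.3 CPM. These ranges overlapped, with a log2 fold change of -0.09 (SE 0.16, 95% interval -0.46 to 0.28).

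Because each ratio within a library needs no scaling, *Alpl* was also set against its neighbours in the pathway. The log2 ratio of *Alpl* to *Enpp1* was 2.59, 3.34 and 2.76 in OsxCre and 2.31, 2.65 and 2.38 in the libraries labelled OsxCre;Stat3fl/fl, a mean difference of -0.45 with overlapping groups (exact permutation test, two-sided, p = 0.2, adjusted p = 0.567 over the 17 ratios computed). The smallest p that 3 libraries against 3 allow is 0.1. With a library left out, this difference ran from -0.61 to -0.23, the latter without OsxCre replicate 2. The log2 ratio of *Alpl* to *Phospho1* differed by 0.03 between genotypes (exact permutation p = 1), with single libraries from 0.38 to 1.35. Against the summed counts of *Col1a1* and *Col1a2*, the chains of type I collagen, *Alpl* had a log2 difference of -0.38 (exact permutation p = 0.3) and *Phospho1* of -0.41 (exact permutation p = 0.2), and both overlapped between genotypes. These became -0.17 for *Alpl* without OsxCre replicate 2 and -0.23 for *Phospho1* without OsxCre replicate 3.

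The sodium-phosphate cotransporters PiT1 and PiT2 are encoded by *Slc20a1* (chromosome 2, 129198773 to 129211615) and *Slc20a2* (chromosome 8, 22476700 to 22569616). *Slc20a1* had 69.6, 69.2 and 70.0 CPM in OsxCre and 77.7, 53.1 and 62.6 CPM in the libraries labelled OsxCre;Stat3fl/fl. The OsxCre libraries were nearly equal (coefficient of variation 0.568%), whereas the others lay on both sides of them (19.3%), and the log2 fold change was -0.11 (SE 0.13, 95% interval -0.41 to 0.19). *Slc20a2* had 122, 108 and 123 CPM against 111, 135 and 127 CPM, with a log2 fold change of 0.08 (SE 0.10, 95% interval -0.15 to 0.30). The adjusted p was 0.738 for *Slc20a1* and 0.758 for *Slc20a2* (edgeR's quasi-likelihood test). Their log2 ratio differed by -0.20 between genotypes (exact permutation p = 0.5), and by -0.43 to -0.01 with a library left out, the extremes without OsxCre;Stat3fl/fl replicates 1 and 2. Relative to type I collagen, *Slc20a2* was higher in each library labelled OsxCre;Stat3fl/fl than in each OsxCre library, by 0.23 in log2 (exact permutation p = 0.1, adjusted p = 0.567 over the 17 ratios).

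Among the Gla proteins, *Mgp* (chromosome 6, 136872435 to 136875823) had 327, 307 and 295 CPM in OsxCre and 429, 429 and 446 CPM in the libraries labelled OsxCre;Stat3fl/fl. The groups were far apart beside their spread, with means of 310 ± 16.2 and 435 ± 10.1 CPM (SD, n = 3). *Mgp* rose by 40.3% (log2 fold change 0.49, SE 0.08, 95% interval 0.31 to 0.67, edgeR quasi-likelihood test, adjusted p = 0.0347). The call was lost in each of the 6 fits that left out a library, with an adjusted p between 0.0661 and 0.146 and a log2 fold change between 0.45 and 0.53, and also with library totals alone (adjusted p = 0.0535) and without scaling (0.417). Of all genes, 7 to 67 were called higher with a library left out, against 121 with every library. Without scaling the log2 fold change of *Mgp* was 0.11 where the median of all genes was -0.38, so that *Mgp* lay 0.50 above that median. Over all 10 alternatives that kept every library, the adjusted p of *Mgp* was between 1.42e-06 and 0.417.

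*Mgp* is made by chondrocytes and vascular smooth muscle cells as well as in bone, and markers of these cells were read beside it. Of 8 chondrocyte markers tested, 7 had a log2 fold change above 0 and 1 below, with a median of 0.29, and 0 passed the adjusted p with edgeR, DESeq2 or limma-voom (1 had an unadjusted p under 0.05 with edgeR). Over all genes tested, 50.7% were below 0 and 8.03% were higher at that unadjusted p. The next values are those of the chondrocyte markers. Their summed level was between 2199 and 3741 CPM in OsxCre and between 3242 and 4224 CPM in the libraries labelled OsxCre;Stat3fl/fl, with *Col2a1* the most counted. For 5 markers of smooth muscle and pericytes the sums overlapped, at 448 to 628 and 426 to 540 CPM, and 3 of the 5 were below 0. No marker of either list was at 0 in a whole group, and the part of these cells in the *Mgp* difference was not tested.

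*Bglap* (chromosome 3, 88383495 to 88384466) had 26.3, 20.4 and 25.2 CPM in OsxCre and 17.9, 25.6 and 37.3 CPM in the libraries labelled OsxCre;Stat3fl/fl. *Bglap2* (88377736 to 88378701, with 4794 bp between the genes) had 22.1, 20.3 and 19.1 CPM against 16.9, 22.6 and 27.0 CPM. In both genes the libraries labelled OsxCre;Stat3fl/fl reached lower and higher than all 3 OsxCre libraries, with replicate 1 lowest and replicate 3 highest. The log2 fold changes were 0.17 (SE 0.25, 95% interval -0.40 to 0.74) for *Bglap* and 0.11 (SE 0.17, 95% interval -0.28 to 0.51) for *Bglap2*, with adjusted p-values of 0.793 and 0.799 in edgeR. They turned to -0.14 and -0.05 without OsxCre;Stat3fl/fl replicate 3, and to -0.21 and -0.26 without scaling, where the median of all genes was -0.38.

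*Bglap3* had 8, 2 and 2 counts in OsxCre and 4, 2 and 1 counts in the libraries labelled OsxCre;Stat3fl/fl, too few to test. Summing the 3 genes avoids the question of which of them a read came from. The sums were 49.1, 40.9 and 44.4 CPM against 35.3, 48.4 and 64.4 CPM, with a log2 fold change of 0.14 (SE 0.20, 95% interval -0.32 to 0.60, edgeR quasi-likelihood test, adjusted p = 0.786). The log2 ratio of *Bglap* to *Bglap2* within a library was between 0.01 and 0.47 in all 6 libraries and differed by 0.02 between genotypes (exact permutation p = 0.9).

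*Alpl*, an early gene of the osteoblast, and osteocalcin, a late one, were compared within libraries. The log2 ratio of *Alpl* to *Bglap* plus *Bglap2* was 2.52, 2.98 and 2.49 in OsxCre and 2.51, 1.97 and 1.59 in the libraries labelled OsxCre;Stat3fl/fl. The mean difference was -0.64, but replicate 1 of the latter lay among the OsxCre libraries (exact permutation p = 0.2). For *Mgp* the ratio to osteocalcin was higher by 0.39, again with overlap (exact permutation p = 0.2). Leaving out a library moved the first difference between -0.88 (without OsxCre;Stat3fl/fl replicate 1) and -0.42 (without OsxCre;Stat3fl/fl replicate 3), and the second between 0.17 and 0.58 (without the same libraries). Against type I collagen, *Mgp* was higher by 0.65 in log2, from -6.55, -6.22 and -6.50 in OsxCre to -5.56, -5.92 and -5.85, with no overlap. Its exact permutation p was 0.1, and 0.567 after adjustment over the 17 ratios.

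**Figure D2:**
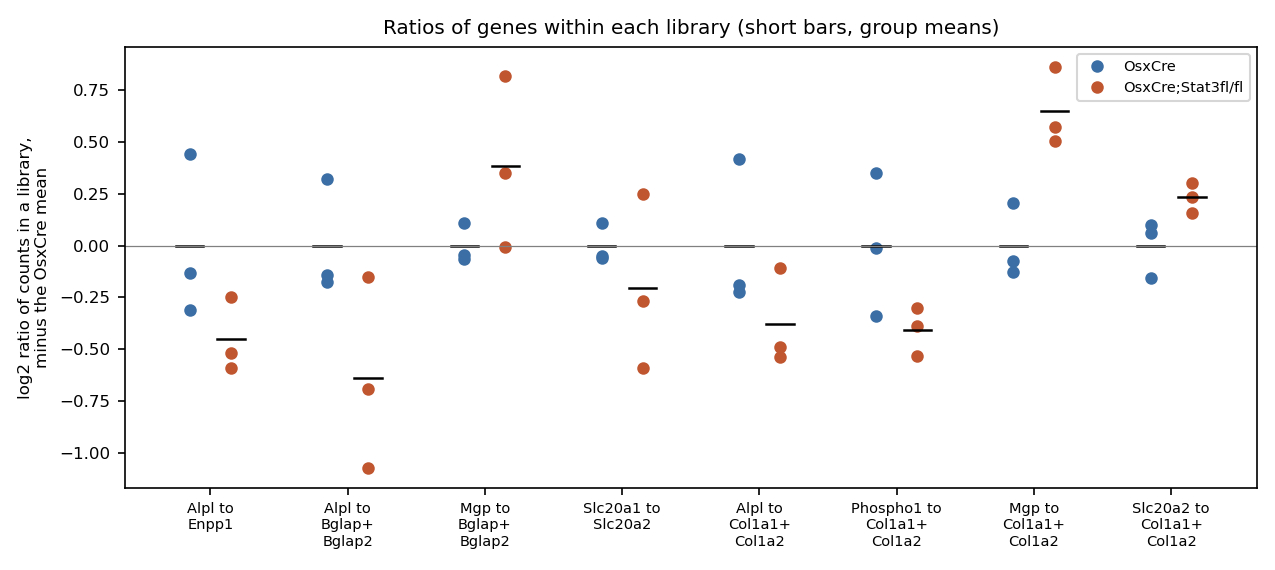
Log2 ratios of counts within each library, less the OsxCre mean of that ratio, for 8 of the 17 ratios computed (points, libraries; bars, group means). *Mgp* and *Slc20a2* relative to *Col1a1* plus *Col1a2* are the ratios drawn in which the genotypes do not overlap.

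The last pair acts on phosphate balance and on matrix phosphoproteins. *Phex* (chromosome X, 157162075 to 157415286), an endopeptidase of osteoblasts and osteocytes whose loss causes phosphate wasting, had 50.5, 36.4 and 58.2 CPM in OsxCre and 33.5, 39.6 and 49.0 CPM in the libraries labelled OsxCre;Stat3fl/fl. The log2 fold change was -0.25 (SE 0.19, 95% interval -0.70 to 0.20, edgeR quasi-likelihood test, adjusted p = 0.579), and OsxCre replicate 2 lay inside the other group. *Fam20c* (chromosome 5, 138755081 to 138810063), the kinase that phosphorylates secreted proteins, osteopontin among them, had 55.2, 50.1 and 56.5 CPM against 65.4, 46.5 and 68.3 CPM. Here 2 of the 3 libraries labelled OsxCre;Stat3fl/fl were above all OsxCre libraries and the other was below them, and the log2 fold change was 0.16 (SE 0.14, 95% interval -0.18 to 0.49, adjusted p = 0.649). Without OsxCre;Stat3fl/fl replicate 2, the library that was below, the log2 fold change of *Fam20c* was 0.32 (edgeR, adjusted p = 0.187), and over all fits that left out a library it ran from 0.05 to 0.32 for *Fam20c* and from -0.42 to -0.10 for *Phex*.

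The 7 members with overlapping groups had 95% intervals that reached at most 0.74 above 0 and 0.70 below it, so that changes of the size seen in *Alpl* or *Mgp* lay inside the interval of some of them. The interval of *Slc20a2*, the narrowest of these, ran from -0.15 to 0.30.

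To compare levels between genes, CPM were divided by the length of the exons of each gene in the GENCODE annotation, all transcripts merged. In OsxCre, *Mgp* stood far above the rest with 518 CPM per kb, followed by *Alpl* with 70.1 and *Phospho1* with 70.1 CPM per kb, which overlapped. *Bglap2*, *Bglap* and *Slc20a2* came next with 43.5, 38.8 and 32.3 CPM per kb, each overlapping its neighbour. *Fam20c* and *Slc20a1* had 12.8 and 12.5 CPM per kb and also overlapped, and *Phex* with 7.69 and *Enpp1* with 3.72 CPM per kb came last. In the libraries labelled OsxCre;Stat3fl/fl, *Mgp* was at 727 CPM per kb, and *Alpl*, *Bglap2*, *Phospho1*, *Bglap* and *Slc20a2*, at 48.1, 47.1, 46.9, 43.6 and 34.1 CPM per kb, each overlapped the next. The lower order, from *Fam20c* to *Enpp1*, was that of OsxCre. *Enpp1* has 10257 bp of merged exons, so its level per kb would be higher if a shorter transcript were the one in use, and the levels of *Bglap* and *Bglap2* rest on counts in which the treatment of reads that match both genes is not known.

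A wider list of 31 genes that act with these members was read in the same fit, and 23 of them had enough counts to be tested. Of these 23, 18 had a log2 fold change below 0 and 5 above, with a median of -0.20, where 50.7% of all genes were below 0. With a library left out, this median ran from -0.26 (without OsxCre replicate 2) to -0.02 (without OsxCre replicate 1). In the latter fit the median of all genes was -0.01. An adjusted p under 0.05 was reached by 1 gene that fell, *Ibsp*, and by 0 that rose, and DESeq2 and limma-voom likewise called *Ibsp* alone. An unadjusted p under 0.05 was reached by 6 that were lower and 2 that were higher (8.34% and 8.03% of all genes), and the groups lay apart for 5 lower and 2 higher (12.2% and 10.8% of all genes), so the counts of higher genes were near those shares.

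**Figure D3:**
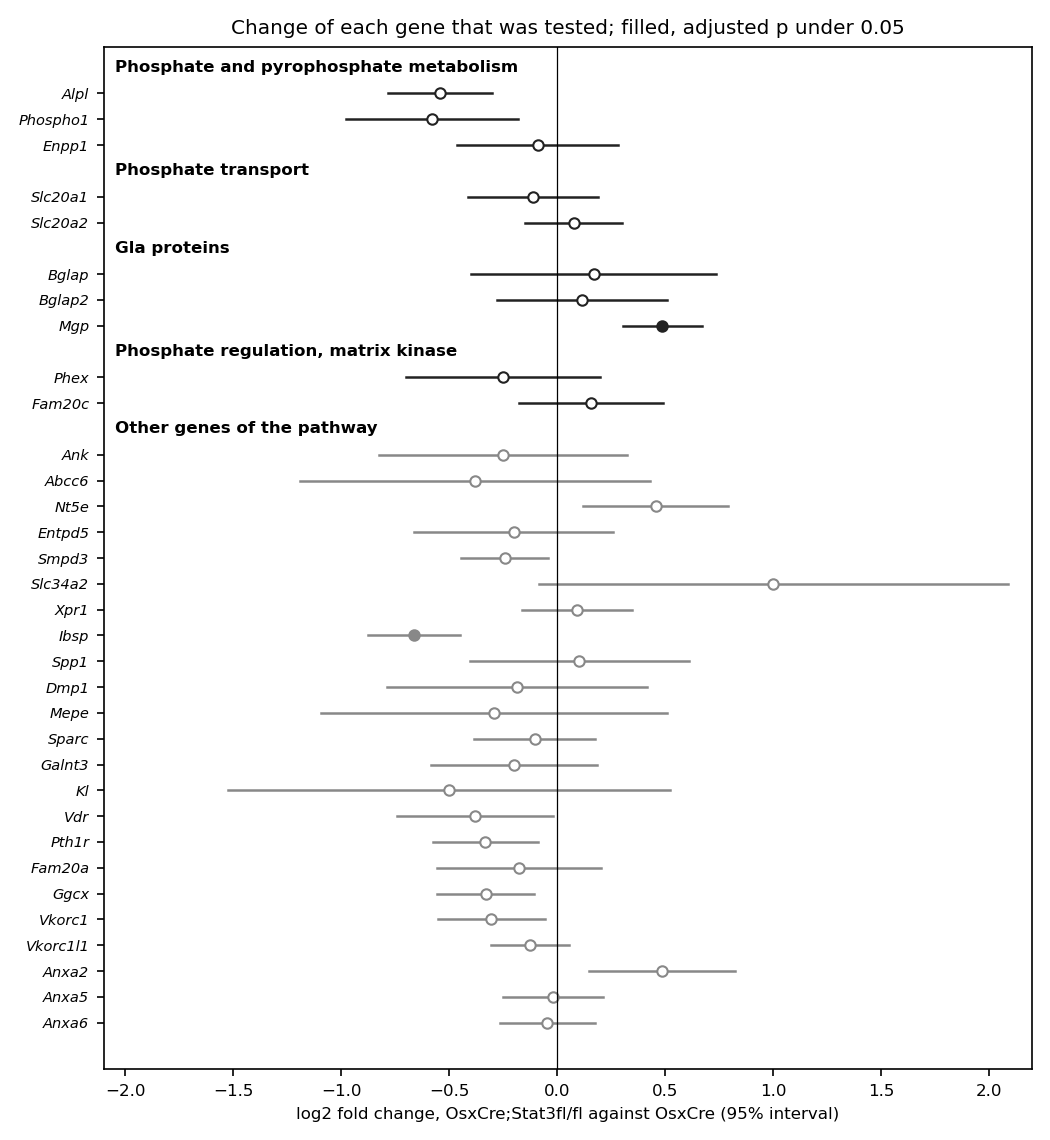
Log2 fold change with its 95% interval (edgeR) for the 10 members (black) and the 23 tested genes of the wider list (grey); filled points passed an adjusted p of 0.05. *Mgp* on the right and *Ibsp* on the left are the filled points.

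*Ibsp*, bone sialoprotein, which nucleates mineral, had 1017, 1060 and 932 CPM in OsxCre and 610, 663 and 627 CPM in the libraries labelled OsxCre;Stat3fl/fl (log2 fold change -0.66, SE 0.09, edgeR quasi-likelihood test, adjusted p = 0.0213). Its adjusted p was under 0.05 in 2 of the 6 fits that left out a library and ran from 0.0399 to 0.105. Of all genes, 5 to 36 were called lower in these fits, against 75 with every library. *Spp1* (osteopontin) and *Dmp1*, both matrix phosphoproteins, overlapped between genotypes, at 0.10 and -0.18 in log2 (edgeR, adjusted p = 0.87 and 0.786). *Spp1* turned to -0.28 without scaling, which lies above the median of all genes in that fit.

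Of the 5 wider genes of phosphate and pyrophosphate release, 4 had a log2 fold change below 0 (*Ank* -0.25, *Abcc6* -0.38, *Entpd5* -0.20 and *Smpd3* -0.24) and 1 above (*Nt5e*). Among all genes tested, 50.7% were below 0. *Ank*, whose product carries ATP and pyrophosphate out of the cell, was low at 4.76, 4.96 and 5.37 CPM in OsxCre, against 4.29 and 5.38 CPM in replicates 2 and 3 labelled OsxCre;Stat3fl/fl and less in replicate 1, with overlap. *Nt5e*, the nucleotidase CD73 that releases phosphate from AMP, had 18.8, 19.7 and 19.6 CPM against 21.0, 28.3 and 30.4 CPM (log2 fold change 0.46, adjusted p = 0.179). *Smpd3*, a neutral sphingomyelinase whose loss impairs mineralization, had 164, 176 and 152 CPM against 142, 128 and 146 CPM (log2 fold change -0.24, adjusted p = 0.221). Neither passed the adjusted threshold in edgeR's quasi-likelihood test, although both separated the genotypes. The genotypes lay apart for 10.8% of all genes that were higher and 12.2% that were lower, each as a share of all genes tested.

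The enzymes of vitamin K-dependent carboxylation, which act on osteocalcin and matrix Gla protein, had log2 fold changes below 0. Of the Gla protein genes, *Mgp* alone was higher with no overlap between genotypes (log2 fold change 0.49). *Bglap* (0.17) and *Bglap2* (0.11) overlapped between genotypes, and turned to -0.14 and -0.05 without OsxCre;Stat3fl/fl replicate 3. *Ggcx*, the carboxylase, had 37.7, 41.4 and 35.2 CPM in OsxCre and 29.3, 32.4 and 29.1 CPM in the libraries labelled OsxCre;Stat3fl/fl, a log2 fold change of -0.33 (edgeR quasi-likelihood test, adjusted p = 0.152). *Vkorc1*, which recycles vitamin K, had 117, 96.8 and 108 CPM against 88.6, 95.7 and 76.7 CPM, a log2 fold change of -0.30 (adjusted p = 0.215). In both genes every library labelled OsxCre;Stat3fl/fl was below every OsxCre library, as it was for 12.2% of all genes. With *Vkorc1l1* and *Fam20a*, the partner of *Fam20c*, 4 of 4 genes in this group were below 0, and 0 passed the adjusted p (2 at an unadjusted p under 0.05). Of all genes tested, 50.7% were below 0 and 8.34% were lower at that unadjusted p.

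Of the hormone axis, 4 of 8 genes could be tested and all 4 were below 0, where 50.7% of all genes were. None of them passed the adjusted p, and 2 were lower at an unadjusted p under 0.05 (8.34% of all genes). Among the genes with too few counts to test, *Fgf23* and *Cyp27b1* went the other way with no overlap between genotypes. *Fgf23* had 0.666, 0.595 and 0.168 CPM against 2.52, 0.858 and 0.819 CPM. *Cyp27b1* had 0.666, 0.793 and 0.923 CPM against 1.32, 0.981 and 1.05 CPM. *Pth1r*, the receptor of parathyroid hormone, had 181, 200 and 182 CPM against 171, 132 and 144 CPM (log2 fold change -0.33, edgeR quasi-likelihood test, adjusted p = 0.176). *Vdr*, the vitamin D receptor, showed a log2 fold change of -0.38 (adjusted p = 0.282) with overlapping groups. Among annexins, which bind calcium at matrix vesicles, *Anxa2* had 27.9, 21.4 and 20.2 CPM against 33.1, 35.4 and 28.9 CPM (log2 fold change 0.49, adjusted p = 0.16), and *Anxa5* and *Anxa6* had log2 fold changes of -0.02 and -0.04.

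Markers of the cell types that the bone could hold were summed in each library. Of all genes tested, 50.7% had a log2 fold change below 0 and 8.34% were lower at an unadjusted p under 0.05. All 7 osteoblast markers had a log2 fold change below 0, with a median of -0.19, 1 of them past the adjusted p (*Ibsp*, which the wider list also holds), and summed levels of 24212 to 32021 CPM in OsxCre and 21109 to 26786 CPM in the libraries labelled OsxCre;Stat3fl/fl. The 3 tested osteocyte markers were also below 0, with sums of 86.0 to 167 and 96.0 to 142 CPM, in which *Dmp1* was the most counted. *Dmp1* and *Mepe* overlapped between genotypes. *Sost* did not, at 5.52, 7.34 and 5.79 CPM against 1.68, 3.68 and 3.74 CPM (log2 fold change -1.03, edgeR quasi-likelihood test, adjusted p = 0.166). *Fgf23*, listed but too low to test, was higher with no overlap. Neutrophil markers, of interest because neutrophils carry alkaline phosphatase, summed to 279 to 479 CPM in OsxCre and 120 to 201 CPM in the libraries labelled OsxCre;Stat3fl/fl, with 5 of 7 tested genes below 0, and *S100a9* most counted and past the adjusted p. The list did not fall as 1, since *Mpo* (0.18) and *Prtn3* (0.44) were above 0 in log2, both with overlap. *Elane*, too low to test, had 0.476, 0.595 and 1.34 CPM in OsxCre against 0, 0.981 and 2.69 CPM. Erythroid sums were lower (2952 to 4826 against 1596 to 2819 CPM, 5 of 5 tested below 0, 0 past the adjusted p with edgeR, DESeq2 or limma-voom and 2 at an unadjusted p under 0.05). Skeletal muscle sums were higher (28811 to 30979 against 33937 to 50518 CPM), with 8 of 9 genes above 0 and 1 of these, *Myh3*, past the adjusted p. The muscle gene below 0 was *Myh4*, at 436 ± 36.3 against 35.7 ± 4.47 CPM (SD, n = 3), which also passed it. The endothelial and osteoclast sums overlapped between genotypes. The part of these cells in the values of *Alpl*, *Phospho1* and *Mgp* was not tested.

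**Figure D4:**
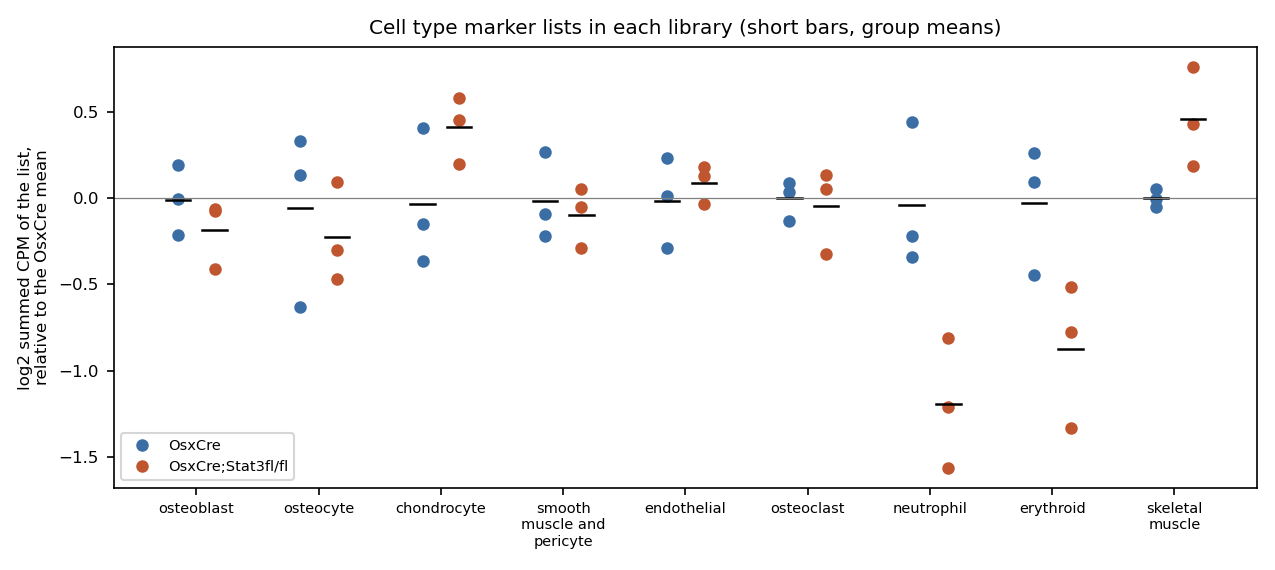
Log2 of the summed CPM of each marker list except the neural and keratinocyte lists, relative to the OsxCre mean (points, libraries; bars, group means of the log2 values). Neutrophil and erythroid sums lie lower and skeletal muscle sums higher in every library labelled OsxCre;Stat3fl/fl, while osteoblast, osteocyte and chondrocyte sums overlap between genotypes.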

How the data were processed

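RNA-seq was performed on parietal bone of newborn mice, 3 libraries per genotype. The authors deposited whole-number counts per gene without normalization; the submitters' processing notes name HISAT2 and GRCm38, whereas the study's methods describe TopHat with mm9, and the counting program is not given in the sources used here. Nothing in the labels ties libraries to separate animals, so p-values measure the spread between libraries. Depth limited precision most in low genes; 3 counts equalled at most 0.366 CPM, for counting error only.

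The comparison was run with edgeR 4.0.16 in R 4.3.3 (filterByExpr, minimum count 10 and minimum total count 15, which left 15600 of 44556 genes; TMM; quasi-likelihood test, two-sided, Benjamini-Hochberg adjustment). The standard error is the log2 fold change divided by the root of F. DESeq2 1.42.0, limma 3.58.1 (voom), other scalings and filters, a replicate block and leaving out each library were alternatives. Ratios were compared by exact permutation tests. Positions and promoters came from RefSeq (GRCm38.p6), and transcripts and exon lengths from GENCODE (NCBIM37). Members and lists were chosen with earlier results of these data known. The text names all members, the genes of the wider list with an unadjusted p under 0.05, *Ank*, *Ibsp*, *Spp1*, *Dmp1*, *Bglap3*, *Stat3* and the most counted or near-zero markers; other names were added after their values were seen.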

Additional observations from a re-analysis of the deposited data

How the results depend on the processing

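Among the 10 members, the count called higher at an adjusted p under 0.05 (1, *Mgp*) became 0 with library totals alone, without scaling and with the replicate block, and was 0 to 0 when each library was left out in turn. The count called lower (0) became 3 without scaling, 1 without the filter on low counts and 2 with DESeq2's Wald test, and was 0 to 1 with a library left out. Of all genes, 5451 of 15600 were called lower without scaling, 178 of 28016 without the filter and 235 of 15595 with DESeq2. Called higher were 112 of 15600 with library totals alone, 121 without scaling and 0 with the replicate block, against 121 with TMM and no block. With a library left out, 5 to 36 of all genes were called lower and 7 to 67 higher, against 75 and 121 with every library. Without scaling, all genes shifted by a median of -0.38, members lower and higher at an unadjusted p under 0.05 numbered 5 and 0, those of the wider list 14 and 0, and 12 of the wider list were called lower at the adjusted p. Over all 15600 genes of that fit, 7619 were lower and 186 higher at the unadjusted p. In that fit the Bglap family sum was -0.23, *Slc20a2* -0.30, *Bglap* -0.21, *Bglap2* -0.26, *Fam20c* -0.22, *Spp1* -0.28 and *Stat3* -0.26, each above the median of all genes. Without the filter, 4 genes of the wider list were higher at an unadjusted p under 0.05, as were 1488 of all 28016 genes.

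With a library left out, members at an unadjusted p under 0.05 numbered 2 to 3 lower and 1 to 2 higher, the wider list 0 to 1 lower at the adjusted p and 3 to 7 lower at the unadjusted p, and the Bglap family sum ran from -0.10 to 0.34. Of the 15830 to 16210 genes tested in these fits, 951 to 1277 were lower and 957 to 1336 higher at the unadjusted p. Log2 fold changes whose sign turned ran from -0.21 to 0.074 for *Enpp1* (above 0 without OsxCre replicate 1 and without OsxCre;Stat3fl/fl replicate 2), -0.27 to 0.018 for *Slc20a1* (without OsxCre;Stat3fl/fl replicate 2), -0.14 to 0.39 for *Bglap* and -0.052 to 0.28 for *Bglap2* (both without OsxCre;Stat3fl/fl replicate 3), -0.12 to 0.30 for *Spp1* (without OsxCre replicate 2 and without OsxCre;Stat3fl/fl replicate 3) and -0.44 to 0.043 for *Dmp1* (without OsxCre replicate 1). *Alpl*, *Phospho1* and *Mgp* kept their sign in every alternative run. The cause of these changes was not tested.

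Libraries with the same replicate number did not deviate together (correlations of -0.10, -0.53 and -0.07, with 0 libraries closest to their own number). With the replicate number as a block, 1 gene of 15600 was called lower and 0 higher, against 75 and 121 without it, *Mgp* had an adjusted p of 0.173, and 0 genes of the wider list were called lower, *Ibsp* having an adjusted p of 0.122.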

Other observations

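Of the wider list, 8 genes had too few counts to be tested, *Slc34a1*, *Slc34a3*, *Bglap3*, *Ahsg*, *Fgf23*, *Fgfr1*, *Cyp27b1* and *Cyp24a1*. *Fgf23*, the phosphate-lowering hormone made by osteocytes, had 7, 6 and 2 counts in OsxCre and 21, 7 and 7 counts in the libraries labelled OsxCre;Stat3fl/fl. *Fgfr1*, a receptor for it that is widely used in bone, had 0, 0 and 2 counts and 0, 0 and 3 counts, so the row named *Fgfr1* says little about the level of the gene. Both were chosen after their values were seen.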
